A study of Mus musculus with 8 samples.

Results

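Immediate early genes are transcribed within minutes of a stimulus, without new protein synthesis. They were measured here by RNA sequencing of mouse retina, the light-sensing nervous tissue of the eye. The 10 genes examined were Fos, Fosb, Fosl2, Junb, Egr1, Egr2, Egr3, Nr4a1, Arc and Npas4. They were taken by gene symbol from the 54532 genes of the deposited tables, and each symbol matched 1 gene. The 8 libraries comprised 4 retinas labelled sIVs, short for small intracellular vesicles (membrane vesicles taken from within cells), and 4 control retinas labelled PBS, phosphate-buffered saline. The sources used here do not state strain, age, dose, route, time after treatment or any injury model. The series title concerns vesicle uptake, drug delivery and protection of the retina, and the design sets vesicle retinas against buffer retinas. Each group held replicates 1, 3, 4 and 5. The labels do not say that these came from separate animals, so the p-values reflect the spread among these libraries alone, and that spread may be technical.

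In neurons, calcium entry and growth factor signals reach the genome through the extracellular signal-regulated kinase cascade and calcium-dependent kinases. These modify transcription factors such as CREB, SRF and ELK1, which already sit on the promoters of immediate early genes. Most of the protein products are transcription factors that switch on a later set of genes, and most of the mRNAs are short-lived. In the retina, light and injury are known inducers, and both neurons and Müller glia, the radial support cells, can respond.

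The promoters of Fos, Fosb, Junb, Egr2 and Npas4 are shown. Junb, Fosb and Egr2 were low in the same libraries, Npas4 was not, and Fos is the best-known member. Each of these RefSeq start sites lay within 30 bases of the 5′ end listed in the count table. Each sequence is the 250 bases before the RefSeq start site, 5′ to 3′ on the strand of the gene (GRCm38.p6, the mm10 build). The windows lie at chr12:85473640-85473889 (plus strand, Fos), chr7:19310046-19310295 (minus strand, Fosb), chr8:84978749-84978998 (minus strand, Junb), chr10:67535249-67535498 (plus strand, Egr2) and chr19:4989972-4990221 (minus strand, Npas4). Capitals mark TGACG, the core of the cAMP response element that CREB binds, or its reverse complement CGTCA, and in addition TATAAA and GCGNGGGCG, the binding motif of EGR proteins. The Egr2 window held none of these.
Fos: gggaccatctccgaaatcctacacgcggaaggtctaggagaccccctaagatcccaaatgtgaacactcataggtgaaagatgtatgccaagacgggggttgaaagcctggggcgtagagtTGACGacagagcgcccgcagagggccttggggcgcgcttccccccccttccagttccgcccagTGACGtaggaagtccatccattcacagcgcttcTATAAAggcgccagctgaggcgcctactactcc
Fosb: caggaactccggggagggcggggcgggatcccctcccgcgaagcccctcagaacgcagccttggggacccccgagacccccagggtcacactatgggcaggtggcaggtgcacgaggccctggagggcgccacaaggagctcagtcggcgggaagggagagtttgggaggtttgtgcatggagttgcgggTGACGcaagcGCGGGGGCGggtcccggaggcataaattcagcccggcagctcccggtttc
Junb: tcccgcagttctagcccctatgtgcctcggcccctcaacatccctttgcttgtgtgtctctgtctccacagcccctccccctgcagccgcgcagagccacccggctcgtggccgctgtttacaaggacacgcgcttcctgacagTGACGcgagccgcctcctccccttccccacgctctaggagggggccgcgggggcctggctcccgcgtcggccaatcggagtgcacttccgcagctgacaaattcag
Egr2: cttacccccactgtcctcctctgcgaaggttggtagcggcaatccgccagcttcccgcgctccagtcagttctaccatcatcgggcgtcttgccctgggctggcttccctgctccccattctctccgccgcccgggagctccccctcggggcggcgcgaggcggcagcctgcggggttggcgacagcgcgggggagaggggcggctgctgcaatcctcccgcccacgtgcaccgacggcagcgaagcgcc
Npas4: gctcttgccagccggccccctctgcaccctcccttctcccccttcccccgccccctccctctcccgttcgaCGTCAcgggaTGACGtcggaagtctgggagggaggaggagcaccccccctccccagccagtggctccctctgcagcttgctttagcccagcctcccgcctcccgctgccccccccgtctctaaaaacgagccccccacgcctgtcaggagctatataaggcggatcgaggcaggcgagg

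The RefSeq table held a window for 7 of the 10 genes, the ones shown and those of Fosl2 and Nr4a1. The window nearest to the listed 5′ end was used. Its start site lay 671 bases from the listed end for Fosl2 and 12577 bases from it for Nr4a1. On either strand, TGACG occurred in 5 of the 7 windows, those of Fos, Fosb, Junb, Nr4a1 and Npas4. It occurred in 17.9% of 32536 upstream windows of the same length in the mouse table. In Fos it began 66 and 129 bases before the start site, and in Npas4 it began 169 and 179 bases before it. The full palindrome TGACGTCA, which contains TGACG, occurred in 0 of 7 windows and in 1.56% of all windows. GCGNGGGCG occurred in Fosb, Fosl2 and Nr4a1, and in 4.74% of all windows. TATAAA was found in Fos, beginning 33 bases before the start, and in 12.3% of all windows. The AP-1 motif TGANTCA, which Fos and Jun proteins bind, and the CArG box, which SRF binds, had no match in the 7 windows. They occurred in 6.73% and 1.48% of all windows. These matches describe letters in the window and do not show binding. Sequence farther upstream than the windows was not searched, nor were the promoters of Egr1, Egr3 and Arc, which had no window. The lack of a match therefore does not show that a gene lacks the site.

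Most of the genes were short, with Nr4a1 and Fosl2 as the exceptions at 20527 and 22042 bases. The listed genomic spans of the 10 had a median of 5514.5 bases, against 25204.5 bases over the 14222 protein-coding genes that passed the count filter. Junb had 1 exon in the transcript used, and Egr1, Egr2 and Egr3 had 2 exons, against a median of 9 exons over genes with an annotated 3′ untranslated region. The pentamer ATTTA, the core of the AU-rich elements that mark short-lived mRNAs, stood at 5.52 per kilobase of this region in Nr4a1, 4.91 in Fos and 4.12 in Junb. The median over 14103 genes was 1.31 per kilobase. In total 8 of the 10 genes lay above that median, while Fosb had 0.434 per kilobase and Arc had 0. The longer word TTATTTATT occurred in Fos and Fosl2, or 2 of 10 genes, and in 8.20% of the 14103 genes. In Fos, 30 bases of this region at chr12:85477103-85477132 (plus strand, GRCm38), with the word in capitals, read as follows.
Fos AU-rich site: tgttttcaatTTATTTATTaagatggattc

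All 10 genes passed the filter on low counts that left 17004 genes for testing. Total counts ran from 13915203 to 16009589 in sIVs libraries and from 13803958 to 16622259 in PBS libraries. The retina label was checked against 8 rod markers, which summed to 33920 to 56198 CPM (counts scaled to the TMM-adjusted library size) in sIVs and 29051 to 55102 CPM in PBS retinas. No listed marker of rods, cones, bipolar, amacrine, horizontal or ganglion cells or Müller glia was at 0 over all libraries. Libraries within a group differed in marker sums. A list of 18 gliosis and acute-phase genes summed to 815 CPM in sIVs replicate 1 and 474 CPM in PBS replicate 1, against 1431 to 2640 CPM in the other 6 libraries. Retinal pigment epithelium transcripts, from the cell layer that borders the photoreceptors, summed to 416 CPM in sIVs replicate 4 and to at most 70.0 CPM in each other library. Between groups, the 10 microglia markers each had a positive log2 fold change (median 0.55), as did 6 of 7 tested pigment epithelium markers (median 1.17). Over all genes tested, 51.3% were positive. In each of these lists 0 genes passed the edgeR test and 1 had an unadjusted p under 0.05, against 1.5% of all genes. Each microglia marker was lowest in PBS replicate 1, where their sum was 60.7 CPM, against 165 to 359 CPM in the other libraries. Of the blood markers, 3 of 4 tested were positive (median 1.22), with 0 past the edgeR test and 2, the haemoglobin genes Hbb-bs and Hbb-bt, at an unadjusted p under 0.05. These are near-identical copies between which reads may be split. The summed blood markers did not overlap, at 9.36 to 26.7 CPM in sIVs and 5.23 to 9.12 CPM in PBS retinas. Each of the 4 tested overlapped when taken alone, and Alas2 was lower in sIVs (log2 fold change -0.73 ± 0.42 SE). The part of microglia, pigment epithelium and blood cells in the members' values was not tested.

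Per kilobase of gene length, the genes fell into a high and a low set. Mean FPKM (fragments scaled to gene length and library size, as deposited) over the 8 libraries was 25.02 ± 7.13 for Junb, 13.9 ± 5.35 for Egr1, 12.9 ± 2.19 for Fos and 11.6 ± 1.83 for Nr4a1 (SD, n = 8). These 4 genes made up 92.2% of the summed FPKM of the 10. Nr4a1 stood 7.20-fold above the next gene, Fosl2, with no overlap of their ranges over the libraries. Fosl2 averaged 1.61 ± 0.31, Npas4 1.33 ± 0.158, Fosb 0.947 ± 0.231, Arc 0.687 ± 0.222, Egr3 0.486 ± 0.0946 and Egr2 0.299 ± 0.151 FPKM (SD, n = 8). The median over tested protein-coding genes was 6.48 FPKM. Within each set the order was less certain. Egr1 exceeded Fos in 4 of 8 libraries and Fos exceeded Nr4a1 in 6 of 8, so these 3 were not separated beyond their spread. Junb exceeded Egr1 in 8 of 8 libraries, although their ranges overlapped. In the low set each neighbouring pair had overlapping ranges, and Npas4 exceeded Fosb in 8 of 8 libraries.

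No immediate early gene passed the test between sIVs and PBS retinas. By edgeR's quasi-likelihood test with Benjamini-Hochberg adjustment over all genes, 0 of the 10 passed at 0.05, as did 0% of the 17004 genes tested. At an unadjusted p under 0.05 by edgeR there were 0 of 10 members, against 255 of the 17004 genes, or 1.5%. By DESeq2, run without that count filter, 494 of 31741 genes had such a p, and both tests had 0 adjusted calls. The groups did not overlap for 0 of the 10, against 2.01% of all genes. Log2 fold changes were positive for 5 members and negative for 5, with a median of 0.01 for the members and 0.01 over all genes tested. For Fos, Fosb, Fosl2, Junb, Egr3, Nr4a1 and Npas4, the approximate 95% interval lay within a 2-fold change in either direction. It reached beyond 2-fold lower for Arc, Egr1 and Egr2. The signs of Fos, Fosb, Nr4a1 and Egr3 changed when single libraries were left out. In bulk tissue, fewer cells of a type and less RNA per cell cannot be told apart.

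**Figure D1:**
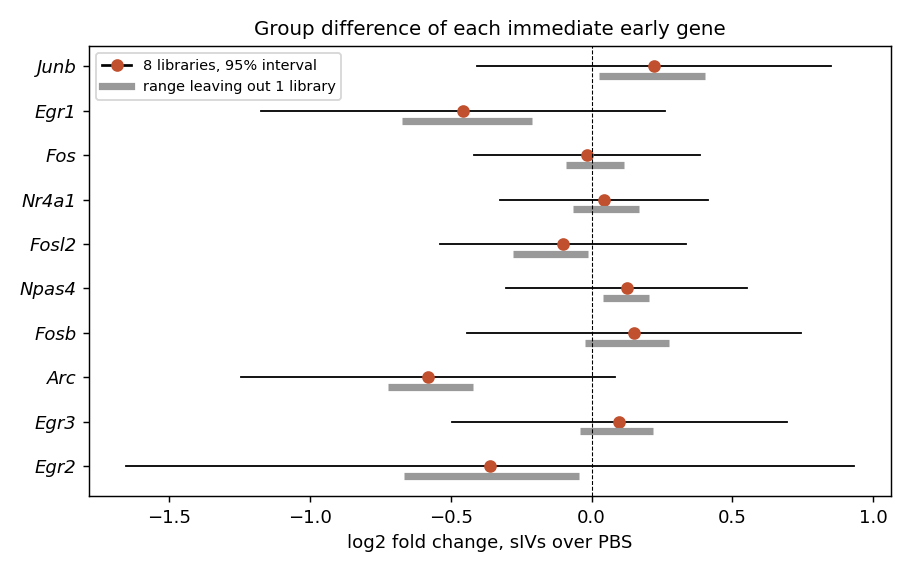
Log2 fold change (sIVs over PBS, horizontal axis) of each immediate early gene, ordered by mean FPKM from the top. Points and thin lines are the edgeR estimate and its approximate 95% interval over 8 libraries, and grey bars are the range when each library was left out in turn; the 10 intervals include 0.

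Among the Fos family, whose proteins pair with Jun proteins to form the AP-1 transcription factor, Fos itself had the log2 fold change nearest to 0 of the 10. It stood at 21.9, 34.1, 31.8 and 35.4 CPM in sIVs replicates 1, 3, 4 and 5, and at 27.5, 28.5, 38.8 and 29.6 CPM in PBS replicates 1, 3, 4 and 5. The sIVs group held the lowest library, replicate 1, and the PBS group the highest, replicate 4. Replicate 1 was also the lowest PBS library, at 27.5 CPM against 28.5 CPM in replicate 3. Group means were 30.8 ± 6.13 CPM in sIVs and 31.1 ± 5.20 CPM in PBS retinas (SD, n = 4 each), a log2 fold change of -0.01 ± 0.18 (SE; edgeR adjusted p = 0.98). The gene is on chromosome 12 (85473890 to 85477273, plus strand, mm10).

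Fosb, which encodes full-length FosB and the stable splice form deltaFosB, stood at 4.86, 6.45, 5.56 and 8.51 CPM in sIVs replicates 1, 3, 4 and 5. In PBS replicates 1, 3, 4 and 5 it stood at 3.55, 7.10, 5.90 and 6.25 CPM. Replicate 1 was the lowest library of each group. The log2 fold change was 0.15 ± 0.26 (SE; edgeR adjusted p = 0.86), and without PBS replicate 1 it was -0.02. Gene-level counts do not separate the splice forms. Fosl2, which encodes the Fos-related protein Fra-2, stood at 12.7, 20.7, 12.7 and 15.3 CPM in sIVs and 13.7, 19.3, 15.2 and 17.5 CPM in PBS replicates 1, 3, 4 and 5. Replicate 3 was the highest library of each group. The log2 fold change of Fosl2 was -0.10 ± 0.19 (SE; edgeR adjusted p = 0.87). Fosb lies on chromosome 7 (19302696 to 19310051, minus strand) and Fosl2 on chromosome 5 (32135801 to 32157842, plus strand).

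Junb encodes a Jun protein that pairs with Fos proteins, and it had the highest level per length of the 10. It stood at 37.5, 60.3, 80.6 and 74.3 CPM in sIVs replicates 1, 3, 4 and 5, and at 31.1, 63.6, 64.3 and 57.6 CPM in PBS replicates 1, 3, 4 and 5. Replicate 1 was far below the others of its group in both groups, and sIVs replicates 4 and 5 were above each PBS library. The log2 fold change was 0.22 ± 0.28 (SE; edgeR adjusted p = 0.82). It was -0.11 without both sIVs replicate 4 and PBS replicate 1, and -0.08 with limma-voom quality weights. The listed span of Junb on chromosome 8 (84974484 to 84978718, minus strand) overlaps 351 bases of Prdx2, an antioxidant enzyme gene on the opposite strand. Prdx2 stood at 400 CPM in sIVs replicate 4 and at 151 to 204 CPM in the other 7 libraries. The protocol marked strand, but the sources used here do not state whether counting used it, and the share of overlapping reads in the Junb level was not tested.

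**Figure D2:**
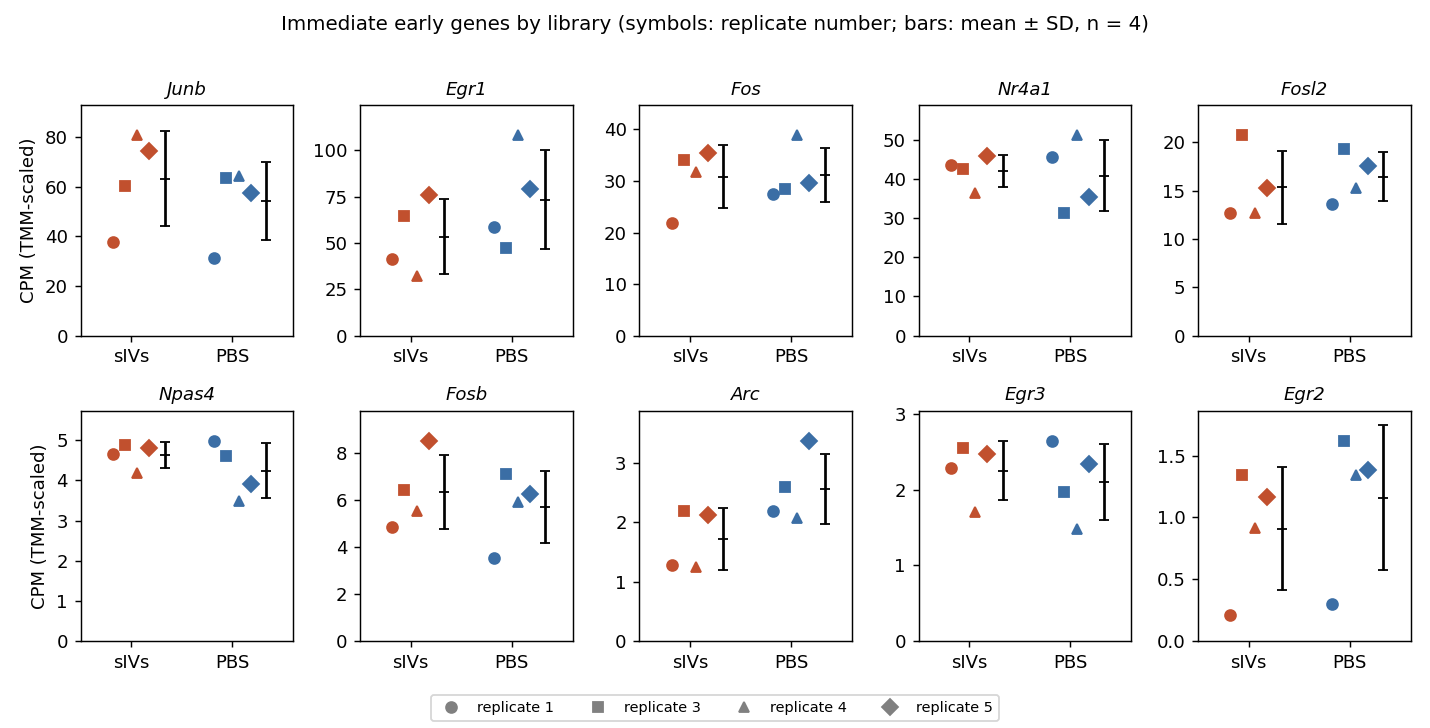
CPM of the 10 immediate early genes in each library, sIVs left and PBS right in each panel; symbols give the replicate number and black bars the mean ± SD (n = 4). Each gene's groups overlap, and replicate 1 of each group is the lowest for Junb, Fosb, Egr2 and Fos.

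The EGR genes encode zinc-finger transcription factors that bind GC-rich promoter sites. Egr1, on chromosome 18 (34859823 to 34864984, plus strand), stood at 41.5, 64.4, 32.0 and 75.7 CPM in sIVs replicates 1, 3, 4 and 5. In PBS replicates 1, 3, 4 and 5 it stood at 58.6, 47.3, 108 and 79.2 CPM. The lowest library, sIVs replicate 4, and the highest, PBS replicate 4, differed 3.37-fold, and the groups overlapped. Means were 53.4 ± 20.1 CPM in sIVs and 73.3 ± 26.6 CPM in PBS retinas (SD, n = 4 each), a log2 fold change of -0.46 ± 0.32 (SE; edgeR adjusted p = 0.81). Without PBS replicate 4 the log2 fold change was -0.21, and without sIVs replicate 4 it was -0.28.

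Egr2, known for its part in myelination and in immune cells, was the lowest of the 10 per length. It had 3, 19, 14 and 17 counts in sIVs replicates 1, 3, 4 and 5, and 4, 28, 20 and 23 counts in PBS replicates 1, 3, 4 and 5. The 2 libraries numbered 1 were the lowest, and the exact Poisson 95% intervals of their counts, 0.619 to 8.77 in sIVs and 1.09 to 10.2 in PBS, cover counting error only. The log2 fold change was -0.36 ± 0.57 (SE; edgeR adjusted p = 0.85), with an approximate 95% interval from -1.65 to 0.93. Egr3, which neuronal activity induces after Egr1, stood at 2.29, 2.55, 1.70 and 2.47 CPM in sIVs and 2.64, 1.96, 1.48 and 2.34 CPM in PBS replicates 1, 3, 4 and 5. Its lowest library in each group was replicate 4, and its log2 fold change was 0.10 ± 0.26 (SE; edgeR adjusted p = 0.91). Egr2 lies on chromosome 10 (67535475 to 67542188) and Egr3 on chromosome 14 (70077203 to 70082614), both on the plus strand.

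Nr4a1 encodes the orphan nuclear receptor Nur77 and lies on chromosome 15 (101254269 to 101274795, plus strand). It stood at 43.5, 42.7, 36.4 and 45.9 CPM in sIVs and 45.5, 31.3, 51.1 and 35.5 CPM in PBS replicates 1, 3, 4 and 5. The sIVs libraries lay within the range of the PBS libraries. The log2 fold change was 0.04 ± 0.16 (SE; edgeR adjusted p = 0.93).

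The remaining genes are the most specific to neuronal activity. Arc encodes a protein of excitatory synapses that promotes removal of AMPA-type glutamate receptors, and it lies on chromosome 15 (74669083 to 74672570, minus strand). Its level was 1.29, 2.20, 1.24 and 2.13 CPM in sIVs replicates 1, 3, 4 and 5, and 2.19, 2.60, 2.08 and 3.36 CPM in PBS replicates 1, 3, 4 and 5. Replicates 1 and 4 of the sIVs group were below each PBS library, while sIVs replicates 3 and 5 were within the PBS range. Arc had the largest log2 fold change of the 10 in size, at -0.58 ± 0.29 (SE; approximate 95% interval -1.24 to 0.08). By edgeR its unadjusted p was 0.0797 and its adjusted p was 0.81. It kept a negative sign under the 18 alternatives tried, from -0.72 to -0.24, with adjusted p of 0.577 to 1.00. The value of -0.24 was on log2(FPKM + 1), where the added 1 exceeds the Arc mean of 0.687 FPKM and so shrinks the change. Leaving out 1 library at a time gave -0.72 to -0.42. The counts behind it were 18 to 31 in sIVs and 29 to 56 in PBS libraries. Summed markers of amacrine and horizontal cells, retinal interneurons, were also lowest in sIVs replicate 4, at 1062 CPM against 1122 to 1308 CPM in the other libraries. The list was not uniform. Tfap2b, Gad2, Slc6a9, Lhx1 and Onecut1 were lowest in that library, Slc32a1 and Th were highest in it, and Pax6, Tfap2a and Gad1 were neither. The part of these cells in the Arc value was not tested.

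Npas4 encodes an activity-dependent transcription factor induced by calcium entry, and it had the smallest spread of the 10 within groups. It stood at 4.65, 4.89, 4.18 and 4.80 CPM in sIVs and 4.98, 4.62, 3.49 and 3.90 CPM in PBS replicates 1, 3, 4 and 5. The sIVs libraries lay within the PBS range. The log2 fold change was 0.12 ± 0.19 (SE; edgeR adjusted p = 0.84). The gene lies on chromosome 19 (4984355 to 4989971, minus strand).

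The genes differed in how much they varied between libraries of the same group. The SD of log2 CPM after removal of group means (6 degrees of freedom) was 0.54 for Egr1 and 0.50 for Junb. Each value exceeded that of 95.4% and 95.8% of the 500 tested genes nearest in level, in that order, where the median SD was 0.20. Egr2 had an SD of 0.94, above 88.8% of its neighbours in level, whose median was 0.56. For Fos, Nr4a1, Fosb and Fosl2 the SD exceeded 66.8%, 61.8%, 58.0% and 52.0% of neighbours. Arc, Egr3 and Npas4 varied less, with SDs of 0.36, 0.30 and 0.17 that exceeded 29.2%, 17.4% and 5.2% of neighbours.

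**Figure D3:**
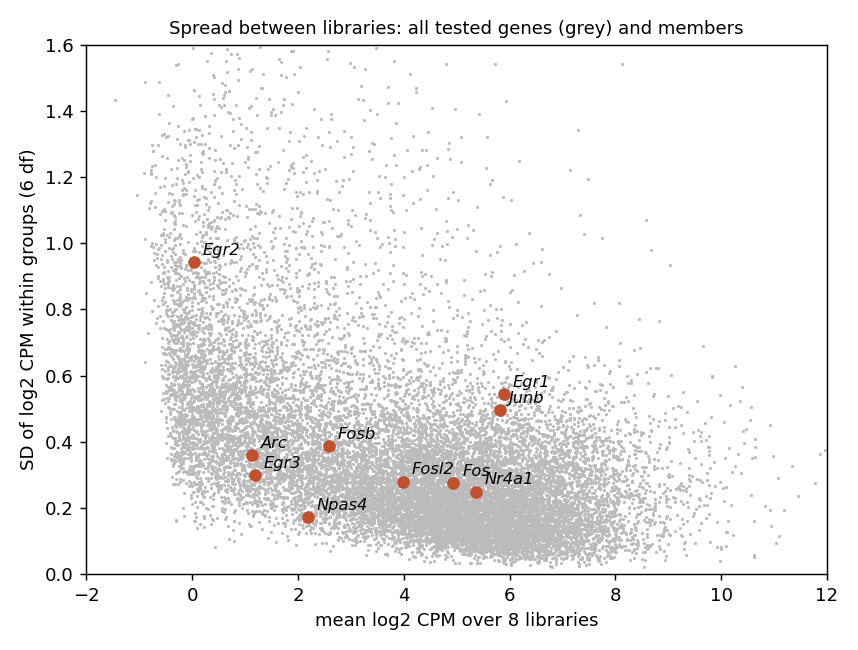
SD of log2 CPM within groups (vertical axis) against mean log2 CPM over 8 libraries (horizontal axis) for the tested genes in grey and the 10 immediate early genes in orange; 124 genes lie beyond the axis limits. Egr1 and Junb lie near the top of the cloud at their level, and Npas4 near the bottom.

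The high and low libraries were not the same for each gene. In sIVs replicate 1, 7 of 10 genes were below their mean over the 8 libraries on the log2 scale, as were 7 in sIVs replicate 4 and 6 in PBS replicate 1. In sIVs replicate 3 the number was 0. Egr2, Junb, Fosb and Fos were lowest in replicate 1 of each group, for Fos by a small margin in PBS retinas (27.5 CPM against 28.5 CPM in replicate 3). Egr3 and Npas4 were above their means in replicate 1 of each group, and both were highest in PBS replicate 1. Junb was highest in sIVs replicate 4, the library where Egr1, Arc and Fosl2 were lowest. Egr1, Fos and Nr4a1 were highest in PBS replicate 4, where Egr3 and Npas4 were lowest.

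**Figure D4:**
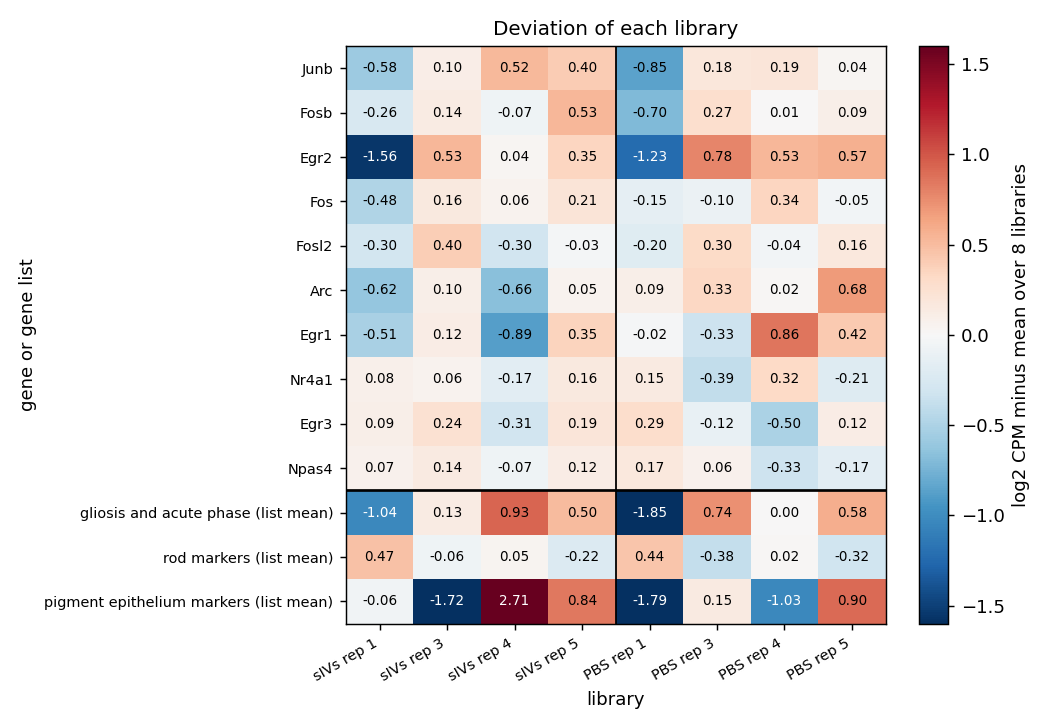
Log2 CPM of each immediate early gene (rows) in each library (columns, sIVs left of the line) minus its mean over the 8 libraries, with the mean of the same value over 3 gene lists below the line; colours saturate at 1.6. Junb and Egr2 are blue in replicate 1 of each group, where the gliosis list is lowest, while Egr3 and Npas4 are pale red there.

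Correlations across the 8 libraries were computed for the 45 pairs of members, with two-sided exact permutation tests and adjustment over the pairs. None passed after adjustment (lowest adjusted p = 0.304 for Pearson's r and 0.231 for Spearman's rho), and 7 pairs had an unadjusted Pearson p under 0.05. Of those 7, only Fosl2 with Arc and Egr3 with Npas4 held neither Junb nor Egr2, whose levels fell into separate clusters of libraries. Fosl2 and Arc had r = 0.73 (exact permutation p = 0.0409, adjusted p = 0.304) and rho = 0.83 (exact permutation p = 0.0154, adjusted p = 0.231). Without the 2 libraries farthest from the median of Fosl2, r was 0.93. Egr3 and Npas4 had r = 0.78 (exact permutation p = 0.0203, adjusted p = 0.304) and rho = 0.86 (exact permutation p = 0.0107, adjusted p = 0.231). That relation rested on replicate 4 of each group, without which r was 0.34.

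Levels of Junb and of Egr2 fell into separate clusters, the 2 libraries numbered 1 and the other 6, so no pooled value is given for pairs with these genes. Fosb did not split this way, at 4.86 CPM in sIVs replicate 1 and 5.56 CPM in sIVs replicate 4. Within the other 6 libraries, Fosb and Junb had r = 0.06 and rho = -0.20 (exact permutation p = 0.926 and 0.714). Fosb and Egr2 had r = 0.27 and rho = 0.37 (exact permutation p = 0.59 and 0.497). Junb and Egr2 had r = -0.83 and rho = -0.83 (exact permutation p = 0.0264 and 0.0583, adjusted over 45 pairs 0.388 and 0.525). Fosl2 and Egr2 had r = 0.83 and rho = 0.77 (exact permutation p = 0.0389 and 0.103, adjusted 0.388 and 0.578). Fos and Egr2 had r = -0.25 and rho = -0.60. Of the 45 pairs, Fos and Nr4a1 had the smallest p in these 6 libraries (r = 0.98, rho = 1.00, exact permutation p = 0.00278 and adjusted p = 0.125 for each). Over the 8 libraries that pair had r = 0.30. For rho over 6 libraries, 0.00278 is the smallest p this test can give, so 1 pair alone could not pass adjustment over 45 pairs. The 6 libraries were also set apart by the Junb and Egr2 levels in these same data.

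The 2 libraries numbered 1 were the lowest in gliosis transcripts and the highest in rod transcripts. Summed rod markers were 56198 CPM in sIVs replicate 1 and 55102 CPM in PBS replicate 1, against 29051 to 43298 CPM in the other 6 libraries. Gfap, the intermediate filament gene of reactive glia, was lowest there, at 48.8 CPM in sIVs and 33.7 CPM in PBS replicate 1, against 69.6 to 121 CPM elsewhere. Summed microglia markers were 165 CPM in sIVs replicate 1 and 60.7 CPM in PBS replicate 1, also the lowest of their groups. The part of these transcripts' cells in the Junb, Fosb, Egr2 and Fos levels was not tested.

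**Figure D5:**
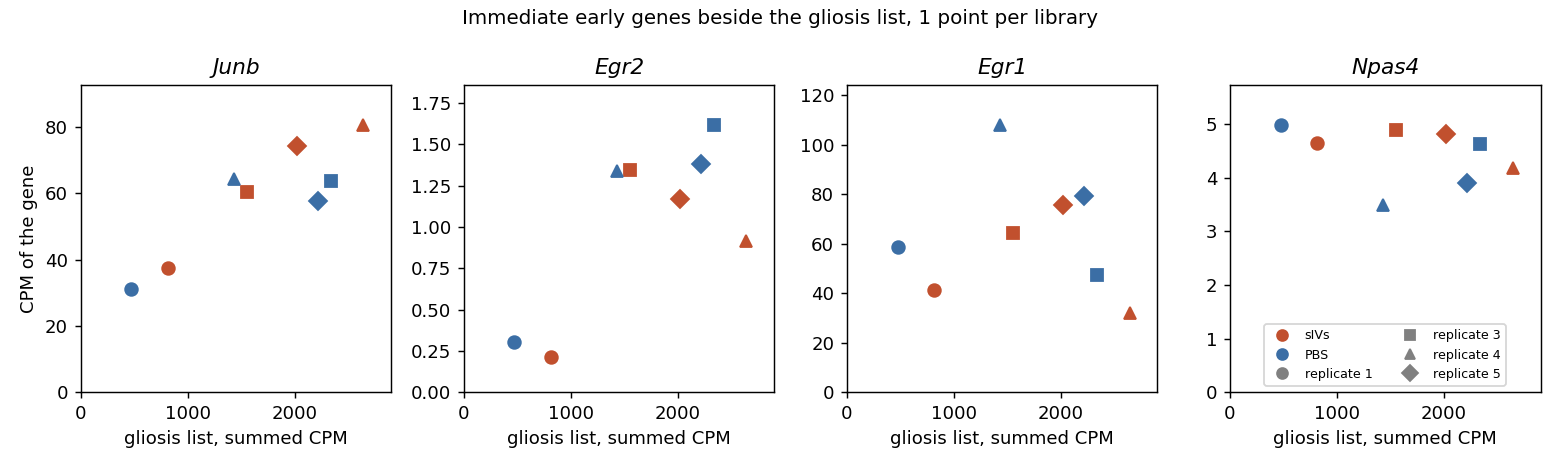
CPM of Junb, Egr2, Egr1 and Npas4 (vertical axes) against the summed CPM of 18 gliosis and acute-phase genes (horizontal axes), 1 point per library, orange for sIVs and blue for PBS, with symbols for the replicate number. The 2 libraries at 815 and 474 CPM have the lowest Junb and Egr2, while Npas4 spans 3.49 to 4.98 CPM over the whole range of gliosis values.

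Other genes of the pathway were described from lists, and 0 members of these lists passed the edgeR test. Of the other Jun, Fos, Maf and ATF genes that can pair in AP-1, 8 of 11 were tested, 4 with a positive and 4 with a negative log2 fold change (median -0.01, against 0.01 over all genes). Jund, a constitutively expressed Jun gene, had the smallest p, at 76.7 ± 37.3 CPM in sIVs and 55.2 ± 2.32 CPM in PBS retinas (SD, n = 4 each; log2 fold change 0.47 ± 0.27 SE; edgeR adjusted p = 0.81). Mafk, which encodes a small Maf protein, followed at -0.18 ± 0.14 (SE). Of the other immediate early genes, 28 of 30 listed symbols were in the table and tested, 18 with a positive and 10 with a negative sign (median 0.10). Klf2, a flow-responsive transcription factor gene of endothelium, was the only gene of the 8 lists described here at an unadjusted p under 0.05, with an edgeR adjusted p of 0.81 and a log2 fold change of 0.68 ± 0.30 (SE). It stood at 8.30, 10.4, 21.0 and 14.8 CPM in sIVs and 7.32, 6.41, 10.2 and 10.2 CPM in PBS replicates 1, 3, 4 and 5, so the groups overlapped. Klf4, a related factor, stood at 2.20 ± 0.35 CPM in sIVs and 3.02 ± 0.537 CPM in PBS retinas without overlap (SD, n = 4 each; log2 fold change -0.45 ± 0.23 SE; edgeR adjusted p = 0.81). Over all genes tested, 2.01% had no overlap between groups. Without sIVs replicate 4 the median of the other immediate early genes was 0.01. The AP-1 median turned positive without sIVs replicate 1, PBS replicate 3 or PBS replicate 4, at 0.05, 0.03 and 0.01.

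Upstream, 31 kinase, phosphatase and transcription factor genes were tested, 13 with a positive and 18 with a negative sign (median -0.06). Camk4 and Camk2a, which encode calcium/calmodulin-dependent kinases, had log2 fold changes of -0.32 ± 0.15 and -0.21 ± 0.11 (SE; edgeR adjusted p = 0.81 for each). Camk2a stood at 34.3, 36.2, 28.6 and 35.1 CPM in sIVs and 37.0, 43.1, 37.5 and 37.1 CPM in PBS replicates 1, 3, 4 and 5, with each sIVs library below each PBS library. Groups were likewise without overlap, in either direction, for 2.01% of all genes tested. Of 16 feedback inhibitors tested, 9 were positive and 7 negative (median 0.03). Spry1, an inhibitor of receptor tyrosine kinase signalling, had 0.25 ± 0.17, and Spred2, an inhibitor of the same cascade, had -0.30 ± 0.21 (SE). Of 15 late activity-response genes tested, 8 were positive and 7 negative (median 0.08). Vgf, which encodes a secreted neuropeptide precursor, had 0.36 ± 0.21, and Nptx1, a neuronal pentraxin gene, had -0.25 ± 0.16 (SE). Without sIVs replicate 4, where Vgf stood at 89.8 CPM against 39.9 to 61.8 CPM in the other sIVs libraries, the late-response median was -0.07 and the upstream median -0.01. The feedback median turned negative without sIVs replicate 3, PBS replicate 3 or PBS replicate 5, at -0.00241, -0.00536 and -0.01.

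Lists whose genes can move with tissue handling, time of day or glial state were set beside them, and again 0 genes passed. Over the 9 heat shock genes the median log2 fold change was 0.13, with the smallest p for Hspb1 (0.60 ± 0.34 SE) and Hspa1b (0.16 ± 0.16 SE), both chaperone genes. The 15 clock genes tested had a median of -0.09, with Dbp, a clock output gene, at 0.29 ± 0.19 and Clock at -0.25 ± 0.20 (SE). Summed clock gene levels ran from 2098 to 2208.8 CPM in sIVs and from 2209.01 to 2290 CPM in PBS retinas. These sums did not overlap, but the nearest values of the groups were almost equal. The 18 gliosis genes had a median of 0.11, with Mt1, a metallothionein gene, at 0.88 ± 0.68 and Cebpb, an acute-phase transcription factor gene, at 0.63 ± 0.53 (SE). These values rested on single libraries. Without sIVs replicate 4 the median was 0.00593 for heat shock, -0.00890 for clock and -0.10 for gliosis genes, and without PBS replicate 1 the gliosis median was -0.12. Mt1 stood at 590.4 CPM in sIVs replicate 4 and at 81.0 to 183 CPM in the other sIVs libraries, and Dbp at 279 CPM there and at 149.8 to 179.6 CPM in the other sIVs libraries.

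The genes most like the immediate early genes were ranked by Pearson's r over the 8 libraries between their log2 CPM and the mean centred log2 CPM of the 10. Of 13777 other protein-coding genes with a mean of at least 1 CPM, the 8 with the highest r were Qk, Ankrd13a, Micall2, Tfap2a, A230050P20Rik, Txnrd1, Man1c1 and Trim35, with r from 0.93 to 0.98. Being the highest of so many genes over 8 libraries, these values are a description only. Qk, which encodes the RNA-binding protein Quaking, stood at 119.9, 150.3, 129 and 145 CPM in sIVs and 124, 145, 144 and 147 CPM in PBS replicates 1, 3, 4 and 5. Its lowest libraries were sIVs replicate 1, PBS replicate 1 and sIVs replicate 4, the libraries where the mean of the 10 genes was lowest. The log2 fold changes of these 8 genes ran from -0.18 to -0.00401, with edgeR adjusted p of at least 0.87. Tfap2a also stood in the list of amacrine and horizontal cell markers.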

How the data were processed

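RNA was sequenced from 8 mouse retina samples, 4 sIVs and 4 PBS, as poly(A)-selected, strand-marking libraries with paired-end reads, per the labels' protocols. The authors deposited raw counts per gene. They also deposited FPKM values, which in each library equalled count over listed gene length and library total times a constant between 0.943 and 1.03. Per the submitters' processing notes the genome build was mm10. The sources used here do not state the aligner or counter. Groups and replicate numbers came from the titles.

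After filterByExpr, which kept 17004 of 54532 genes, sIVs were compared with PBS in edgeR 4.0.16 under R 4.3.3 (glmQLFTest, TMM scaling, only group in the model). Standard errors were taken as the absolute log2 fold change over the square root of F, and 95% intervals from the t distribution with the degrees of freedom of that test. Log2 CPM used a prior count of 2. Exact permutation tests and the other calculations used scipy 1.17.1. Alternatives used DESeq2 1.42.0, limma 3.58.1 with voom and quality weights or on log2(FPKM + 1) and log2(FPKM + 0.1), other scaling and filters, a replicate block and left-out libraries.

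The 10 genes and all lists were chosen with earlier results of these data known, and p-values were adjusted over all genes. Named besides the 10 genes were the 2 genes of smallest p in each pathway list and the 8 genes most like the members. Atf3, Jun, Gfap, Prdx2 and the markers given beside results were chosen after their values were seen. Promoter windows came from RefSeq (GRCm38.p6) and transcripts from GENCODE M21. Depth was 13803958 to 16622259 counts per library. Counting intervals cover counting error only.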

Additional observations from a re-analysis of the deposited data

How the results depend on the processing

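Under the 18 alternatives run (other scaling, filters, tests, units, a replicate block and left-out libraries), 0 genes passed at 0.05, and so did 0 genes of the 8 pathway and state lists. At an unadjusted p under 0.05 the number ran from 136 without PBS replicate 3 to 958 without sIVs replicate 3, against 255 of 17004 genes with all 8 libraries. The number of genes tested was not the same in all alternatives, at 31741 for DESeq2. Arc, Egr1, Egr2, Fosl2 and Npas4 kept the sign of their log2 fold change under each of them. Leaving out 1 library at a time gave -0.0895 to 0.115 for Fos (positive without sIVs replicate 1 or PBS replicate 4), -0.0241 to 0.273 for Fosb (negative without sIVs replicate 5 or PBS replicate 1), -0.0405 to 0.216 for Egr3 (negative without PBS replicate 4), -0.0656 to 0.168 for Nr4a1 (negative without sIVs replicate 5, PBS replicate 3 or PBS replicate 5) and 0.0265 to 0.401 for Junb. Egr3 was 0.334 without both sIVs replicate 4 and PBS replicate 1. Junb was -0.0771 with limma-voom and quality weights and -0.107 without that same pair of libraries. The cause was not tested. The replicate numbers do not pair the samples by the labels. Deviations from group means correlated between same-numbered libraries at 0.60, 0.02, 0.23 and 0.51 for numbers 1, 3, 4 and 5, and sIVs replicate 3 correlated best with PBS replicate 1 (0.22). With the replicate block 0 genes passed (588 unadjusted), and Arc was the only 1 of the 10 at an unadjusted p under 0.05 (edgeR unadjusted p of 0.0497, adjusted p of 0.655). The circadian list median moved by more than its spread in 5 alternatives, from -0.0409 to -0.00335. Counts were lowest for Egr2 (3 to 28 per library) and Arc (18 to 56), and how much of their error is counting error was not tested.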

Other observations

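Among genes that can pair with Fos proteins, Atf3, a stress-induced transcription factor gene named after its values were seen, stood at 10.3, 19.1, 20.5 and 17.1 CPM in sIVs and 10.7, 21.6, 15.4 and 13.8 CPM in PBS replicates 1, 3, 4 and 5. Replicate 1 was the lowest library of each group, as for Junb, Fosb, Egr2 and Fos. Jun, the partner gene of Fos, stood at 43.3, 53.2, 52.6 and 53.7 CPM in sIVs and 49.8, 50.8, 53.4 and 54.7 CPM in PBS replicates 1, 3, 4 and 5, with replicate 1 again lowest in each group but by a smaller margin. Jund stood at 131 CPM in sIVs replicate 4 and at 48.6 to 69.1 CPM in the other 7 libraries.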
